A study of Mus musculus with 8 samples.

Results

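The 8 genes described here, Mbp, Pmp22, Mal, Cnp, Ngfr, Fabp7, Gfra1 and Egr2, are known from Schwann cells, myelin and glia, and were chosen by symbol from the 24421 genes of a mouse skin RNA-seq table. All 8 were found, and all 8 passed the filter on low values (a mean of at least 1 normalized read in at least 1 group), which 18070 genes passed. They were compared over 4 groups of 2 libraries each, sorted from the back skin of 4 C57BL/6J mice. All of them had Tyr:CreERT2 and the ROSA mTmG reporter, which marks every cell with tdTomato in its membrane and changes to membrane EGFP once Cre has recombined it. The Tyr promoter, from the tyrosinase gene of pigment cells, drives a Cre that is switched on by tamoxifen, given once daily for 10 days from postnatal day 21. The back was shaved and depilated on day 50, and the skin was taken on day 54. The UV groups, EGFP+ and tdTomato+, came from mice 3 and 4, which were given UVB at 150 mJ/cm2 for 3 days, and are UV replicates 1 and 2. The no UV groups, EGFP+ and tdTomato+, came from mice 1 and 2, mock treated with normal light, and are no UV replicates 1 and 2. The study's design text calls the EGFP+ cells melanocytes and the tdTomato+ cells the other skin cells, so the tdTomato+ group is a mixture of cell types.

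Schwann cells are the glia of peripheral nerves, and those around large axons wrap them in myelin, a stack of membrane held together by a small set of proteins. Schwann cells and melanocytes both descend from the neural crest, and Schwann cell precursors along nerves are a source of skin melanocytes in mouse embryos. Genes of the glial lineage can therefore be read in pigment cells and in nerve, and several are also used by epithelial cells of the skin and hair follicle.

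The libraries held 11186363 to 16711981 reads. Reads were found for 14503 and 11186 genes in the UV EGFP+ libraries, 14922 and 15867 in the no UV EGFP+ libraries and 15340 to 17076 in the 4 tdTomato+ libraries. Values are normalized reads, that is, reads divided by a size factor per library. Only mouse 1, of the no UV arm, had more than 4 Xist reads in a library, and only its libraries had under 10 reads of 4 Y-linked genes. The 7 melanocyte markers used (Dct, Tyr, Tyrp1, Pmel, Mlana, Slc45a2 and Kit) summed to 524285 to 612080 normalized reads in EGFP+ libraries, against 23040 to 44486 in UV tdTomato+ and 2375 to 5439 in no UV tdTomato+ libraries. The 6 basal keratinocyte markers summed to 668 to 875 in EGFP+ libraries, against 156427 to 209975 in tdTomato+ libraries. Of the genes used to define myelinating Schwann cells, Dhh reached 92.3 normalized reads at most, Mag 23.5, Prx 14.3 and Pmp2 4.58. Of the axon genes, Nefl reached 2.85, Nefm 1.90, Nefh 15.7 and Prph 2.78, while Tubb3, a neuronal tubulin, reached 363, in UV EGFP+ cells. In such bulk samples, fewer cells of a type and less RNA per cell cannot be told apart.

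Fabp7 and Pmp22 were higher in EGFP+ than in tdTomato+ cells, and Mbp, Mal, Ngfr, Gfra1 and Egr2 were lower, over all 4 mice (limma, adjusted p under 0.05). Cnp did not pass. Among all genes tested, 9.66% were higher and 19.2% lower at that threshold (28.9% in all), so 2 higher and 5 lower of 8 are larger shares than the background. The 8 genes were chosen with earlier results of these data known, so these shares describe the 8 genes and are not a test of them. The median log2 fold change of the 8 genes was -3.96, beside -0.33 over all tested genes. On recovered reads edgeR and DESeq2 called the same 7 genes in the same direction, where they called 17.5% and 19.9% of all genes lower. Within UV mice 2 were higher and 5 lower (background 5.03% and 12.9%), with a median of -5.24, or -5.02 with the bound in place of the fitted value for each gene that had 0 reads in a group, beside -0.27. Within no UV mice 2 were higher and 3 lower (background 6.67% and 12.5%), with a median of -1.82 beside -0.27. With mouse as a block, which pairs the 2 populations of a mouse, the 5 calls within no UV mice became 3. Without any test, 2 of the 8 had all EGFP+ values above all tdTomato+ values and 4 had them below (9.8% and 18.0% of all genes). Within UV mice these were 2 and 5 (18.9% and 33.7%), and within no UV mice 2 and 4 (23.7% and 34.2%).

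**Figure D1:**
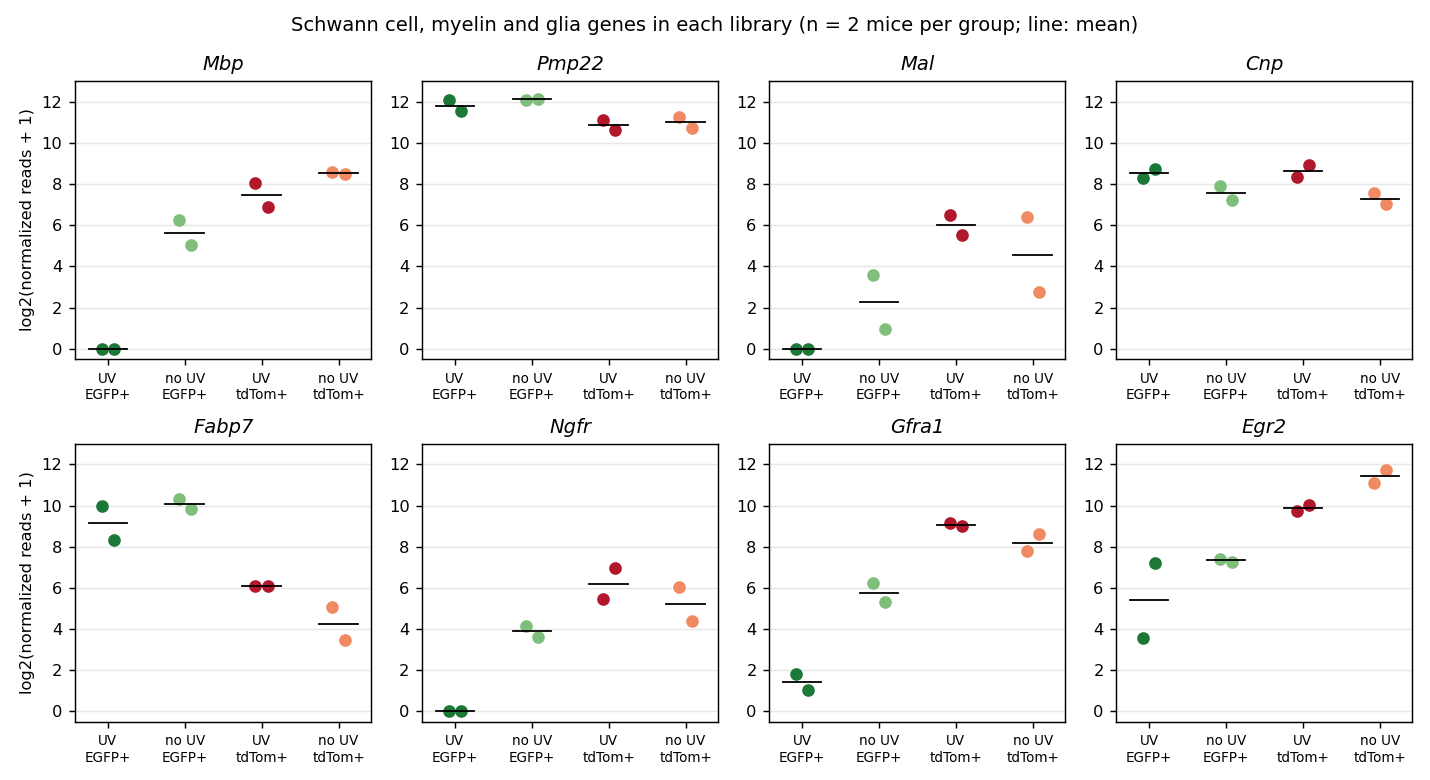
Each point is 1 library, at log2 of normalized reads plus 1 for the 8 genes, and each line is the mean of 2 mice. Mbp, Mal and Ngfr lie at 0 in both UV EGFP+ libraries, and Fabp7 is above 8 on this scale in every EGFP+ library.

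Of the myelin proteins, Mbp encodes myelin basic protein, which compacts the cytoplasmic faces of the myelin membrane, and lies at chr18:82475146-82585637 on the plus strand (mm10). Mbp had 0 reads in both UV EGFP+ libraries, against 262 and 117 normalized reads in UV tdTomato+ libraries. In no UV mice it had 74.9 and 31.4 normalized reads in EGFP+ cells, against 387 and 354 in tdTomato+ cells. The EGFP+ and tdTomato+ values of Mbp did not overlap, and both UV EGFP+ libraries lay below both no UV EGFP+ libraries. Over all mice the log2 fold change of Mbp was -5.18 ± 0.59 (SE; limma adjusted p = 0.000318), lower in EGFP+ cells of 4 of 4 mice. Within UV mice Mbp was at least 134-fold lower in EGFP+ cells, a bound that sets 3 reads over the group in place of 0 and covers counting error only. Where a group has 0 reads, the fitted fold change depends on the pseudocount. In no UV mice the EGFP+ value of Mbp was 19.3% and 8.86% of the tdTomato+ value of the same mouse. The 6 basal keratinocyte markers ran from 0.0254% to 16.7% (median 0.178%) in mouse 1 and from 0.0242% to 15.6% (median 0.183%) in mouse 2. Both Mbp values lie above these medians. In mouse 2, of these 6 markers only Itga6 exceeds the Mbp value (440 normalized reads in EGFP+ against 2819 in tdTomato+ cells). The 5 fibroblast markers ran from 0.0219% to 2.93% (median 1.47%) in mouse 1. In mouse 2 they ran from 0.132% to 43.6% (median 0.707%). The part of other skin cells in the EGFP+ values of Mbp was not tested. Reads were counted per gene, so the classic myelin forms of Mbp and the longer Golli forms, which are made outside myelin too, were not told apart.

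Mal encodes a small membrane protein of myelin and of the apical membrane of epithelia, and lies at chr2:127633226-127656695 on the minus strand. It had 0 reads in both UV EGFP+ libraries, against 88.9 and 44.5 normalized reads in UV tdTomato+ libraries. In no UV mice Mal had 10.8 and 0.951 in EGFP+ cells, against 83.1 and 5.71 in tdTomato+ cells. The no UV groups overlapped, because no UV tdTomato+ replicate 2 was below no UV EGFP+ replicate 1, but Mal was lower in EGFP+ cells of each of the 4 mice. The log2 fold change over all mice was -4.15 ± 1.05 (adjusted p = 0.0184), and in UV mice Mal was at least 47.2-fold lower. The same tdTomato+ library, no UV replicate 2, was also the lowest of the 4 for Cdh19 (2.85 normalized reads), a gene of Schwann cell precursors, while its Mbp stood at 354. The 7 melanocyte markers summed lowest in that library too (2375), and Cdh19 had 645 to 812 in the EGFP+ libraries.

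Pmp22, a membrane protein of compact myelin whose gene dosage matters in inherited neuropathy, is also made in many dividing and epithelial cells, and lies at chr11:63128982-63159547 on the plus strand. UV EGFP+ cells had 4265 and 3009 normalized reads of Pmp22, against 2209 and 1588 in UV tdTomato+ cells. No UV EGFP+ cells had 4350 and 4470, against 2446 and 1704 in no UV tdTomato+ cells. Every EGFP+ library was above every tdTomato+ library, and the EGFP+ value was 178% to 262% of the tdTomato+ value of the same mouse. The log2 fold change was 1.02 ± 0.19 over all mice (adjusted p = 0.0038). Pmp22 starts from more than 1 promoter, and its transcripts were not told apart.

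Cnp encodes the cyclic nucleotide phosphodiesterase of the cytoplasm-rich parts of myelin, and lies at chr11:100574904-100591729 on the plus strand. UV EGFP+ cells had 310 and 427 normalized reads, against 328 and 489 in UV tdTomato+ cells. In no UV mice, EGFP+ cells had 241 and 150, against 187 and 130 in tdTomato+ cells. The populations overlapped in both arms, with a log2 fold change of 0.08 ± 0.30 over all mice (adjusted p = 0.873), and each of the 4 UV libraries was above each of the 4 no UV libraries. Cnp shares 154 exon bases with Dnajc7 on the opposite strand and Gfra1 shares 416 with the antisense gene Gm16277. The library kit did not keep strand, so reads in these stretches cannot be told apart.

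Of 18 myelin protein genes, these 4 included, 4 were higher and 4 lower in EGFP+ cells, beside 9.66% and 19.2% of all genes, so the lower share is near the background. The list median was -0.95 (-1.10 with genes at 0 reads at their bound) beside -0.33 over all tested genes. Among the other higher ones were Gjc3 (log2 fold change 4.68) and Gjb1 (3.62), which encode connexins of glia. The other lower ones were Gldn (-4.40), the gliomedin of nodes of Ranvier, and Cd9 (-1.29), a tetraspanin of myelin and of keratinocytes. Mag (0.77, adjusted p = 0.641) and Prx (-1.40, adjusted p = 0.234) did not pass. Among 15 genes of the PMP22 and MAL families, Pmp22 and Mal included, 3 were higher and 7 lower, with a median of -0.78. Emp3 (2.95), a close relative of Pmp22, and Cmtm3 (2.23) were higher with Pmp22. Mal2 (-6.16) and Mall (-5.65), relatives of Mal in epithelia, and Emp2 (-2.61) were lower with Mal.

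Ngfr and Gfra1 encode receptors, and both were lower in EGFP+ cells. Ngfr encodes the low-affinity neurotrophin receptor p75, a marker of neural crest stem cells and of non-myelinating and immature Schwann cells, and lies at chr11:95568818-95587735 on the minus strand. It had 0 reads in both UV EGFP+ libraries, against 43.1 and 123 normalized reads in UV tdTomato+ libraries. No UV EGFP+ cells had 16.6 and 11.4, against 65.5 and 19.98 in no UV tdTomato+ cells. All 4 EGFP+ values of Ngfr were below all 4 tdTomato+ values, though only just in no UV mice, where the EGFP+ value was 25.4% and 57.1% of the tdTomato+ value. Over all mice the log2 fold change was -3.77 ± 0.79 (adjusted p = 0.00751), and in UV mice Ngfr was at least 58.6-fold lower. Of 9 tested genes of the neurotrophins and their receptors, Ngfr included, 1 was higher and 7 lower, beside 9.66% and 19.2% of all genes. The list median was -3.77. The higher gene was Sort1 (2.39), the sortilin that binds pro-neurotrophins together with p75. Ntrk2, the receptor of BDNF, was lower, with 3 reads in all EGFP+ libraries and a ratio of tdTomato+ over EGFP+ of 333 (95% exact counting interval 114 to 1619). The ligand gene Ntf3 (-6.23) was lower too, as was Ntf5, with 3 EGFP+ reads and a ratio of 286 (97.5 to 1391).

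Gfra1 encodes the co-receptor that presents GDNF to the kinase Ret, and lies at chr19:58235604-58455909 on the minus strand. UV EGFP+ cells had 2.52 and 1.08 normalized reads (4 reads in all), against 561 and 509 in UV tdTomato+ cells. No UV EGFP+ cells had 74.0 and 39.0, against 219 and 394 in no UV tdTomato+ cells. The EGFP+ values were 0.449% and 0.212% of the tdTomato+ values in mice 3 and 4 (UV), and 33.8% and 9.90% in mice 1 and 2 (no UV). Over all mice the log2 fold change was -5.03 ± 0.48 (adjusted p = 0.000141), and within UV mice it was -7.63 ± 0.68 (adjusted p = 0.000253). Of 9 GDNF family genes, Gfra1 included, 1 was higher and 4 lower, beside 9.66% and 19.2% of all genes. The list median was -2.35. The higher gene was the ligand Gdnf itself (3.21), with 227 and 141 normalized reads in UV EGFP+ and 561 and 554 in no UV EGFP+ cells, against 29.3 and 15.8 in UV tdTomato+ and 73.4 and 35.7 in no UV tdTomato+ cells. Nrtn (-6.75), the ligand neurturin, was lower, as were Gfra4 (-2.91) and Artn, with 2 reads in EGFP+ cells and a ratio of 28.7 (7.54 to 243). Gfra4 did not pass in 7 of 8 leave-one-out fits (highest adjusted p 0.127, without no UV EGFP replicate 1), under quantile normalization (0.22), with a pseudocount of 0.1 (0.0769) and on recovered reads with edgeR (0.148) and DESeq2 (0.09). Artn did not pass under quantile normalization (0.0552). Ret had 0 reads in both UV EGFP+ libraries, against 47.7 and 47.3 normalized reads in UV tdTomato+ libraries, and 13.3 and 13.3 in no UV EGFP+ libraries, against 0 and 14.3 in no UV tdTomato+ libraries.

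Fabp7 encodes brain lipid-binding protein, a fatty acid carrier of radial glia and Schwann cell precursors, and lies at chr10:57784881-57788450 on the plus strand. UV EGFP+ cells had 1016 and 323 normalized reads, against 67.8 and 66.8 in UV tdTomato+ cells. No UV EGFP+ cells had 1265 and 901, against 32.3 and 9.99 in no UV tdTomato+ cells. Every EGFP+ library was above every tdTomato+ library, and UV EGFP+ replicate 2, the library with the fewest detected genes, was the lowest EGFP+ library. The log2 fold change was 4.44 ± 0.49 over all mice (adjusted p = 0.000284), 3.07 ± 0.69 within UV mice (adjusted p = 0.0179) and 5.80 ± 0.69 within no UV mice (adjusted p = 0.00091). Fabp7 in tdTomato+ cells was 6.67% and 20.6% of the EGFP+ value in mice 3 and 4 (UV), where the 7 melanocyte markers had ranges of 2.52% to 4.83% and 6.20% to 7.78%. In mice 1 and 2 (no UV) it was 2.55% and 1.11%, where the markers had ranges of 0.571% to 1.94% and 0.297% to 0.917%. The part of these markers in the tdTomato+ values of Fabp7 was not tested. Of 8 tested fatty acid binding proteins 1 was higher, Fabp7 itself, and 3 were lower, beside 9.66% and 19.2% of all genes. The higher share is near the background. The lower ones were Fabp6 (at least 43.1-fold, with 0 reads in EGFP+ cells), Fabp5 (-0.88) and Fabp12 (at least 8.61-fold, also with 0 reads in EGFP+ cells). Fabp5, the carrier of keratinocytes, did not pass in 4 of 8 leave-one-out fits (highest adjusted p 0.11, without no UV EGFP replicate 1) and Fabp12 in 6 (0.146, without no UV EGFP replicate 2). Fabp12 did not pass either with mouse as a block (0.0505), a pseudocount of 0.1 (0.0544), quantile normalization (0.113) or edgeR on recovered reads (0.089).

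**Figure D2:**
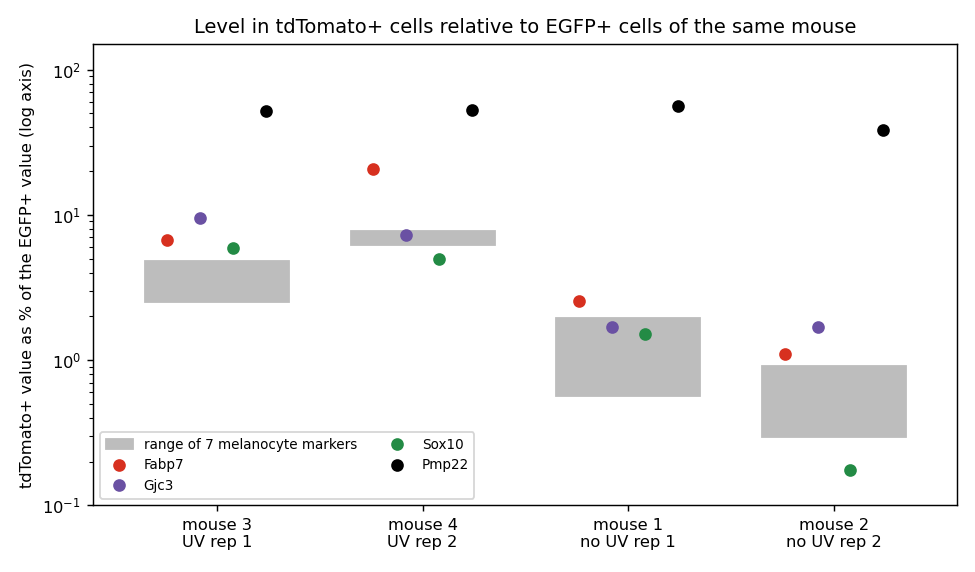
The tdTomato+ value is drawn as a percent of the EGFP+ value of the same mouse, on a log axis, for Fabp7, Pmp22, Gjc3 and Sox10, which were higher in EGFP+ cells; grey bars are the range of 7 melanocyte markers. Fabp7 lies above the bar in each of the 4 mice, and Pmp22 lies at 38.1% to 56.2%.

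The sequence before the Fabp7 start is shown because Fabp7 had the largest positive fold change of the 8 genes. It is the RefSeq sequence of chr10:57784673-57784880, plus strand (GRCm38.p6, the mm10 assembly), which ends at the base before the gene. Capitals mark 2 CCAAT boxes, both on the minus strand.
Fabp7: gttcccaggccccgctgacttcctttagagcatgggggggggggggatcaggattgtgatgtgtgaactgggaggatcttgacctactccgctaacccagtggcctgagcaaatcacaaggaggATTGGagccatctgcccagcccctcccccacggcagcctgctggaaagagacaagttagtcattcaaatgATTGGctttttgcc
Motifs were searched in windows of the 250 bases before each RefSeq start, and the stretch shown is the part of the Fabp7 window before the gene. CCAAT is found in 33.8% of all such windows. The window of Fabp7 held none of the other motifs searched on both strands: TATAAA (12.4% of windows), ACAAAG (16.5%), CATGTG (12.3%), CACGTG (6.02%), TGACGTCA (1.55%), GCGTGGGCG (0.536%) and the CArG box (1.47%). Windows were at hand for 7 of the 8 genes, all but Mbp.

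Egr2 encodes Krox20, the zinc finger factor that turns on the myelin program in Schwann cells and is also an immediate early gene of the hair follicle and of stimulated cells. It lies at chr10:67535475-67542188 on the plus strand. UV EGFP+ cells had 10.9 and 149 normalized reads, against 849 and 1032 in UV tdTomato+ cells. No UV EGFP+ cells had 171 and 154, against 2199 and 3381 in no UV tdTomato+ cells. All EGFP+ values of Egr2 were below all tdTomato+ values, and UV EGFP+ replicate 1 was far below the other 3 EGFP+ libraries. The log2 fold change was -4.27 ± 0.67 over all mice (adjusted p = 0.00184), -4.47 ± 0.95 within UV mice (adjusted p = 0.0139) and -4.06 ± 0.95 within no UV mice (adjusted p = 0.0188). The value within UV mice was -2.65 without UV EGFP replicate 1 and -6.30 without UV EGFP replicate 2. The 2 stretches of the Egr2 gene below are shown because they hold the CArG box, the motif of serum response factor, which is found in 1.47% of windows. Each box, in capitals, spans positions -72 to -63 relative to a RefSeq transcript start, and lies inside the gene, outside its annotated exons. The stretches are chr10:67537484-67537513 and chr10:67537787-67537816, plus strand, GRCm38.p6.
Egr2 box A: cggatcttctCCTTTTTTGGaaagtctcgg
Egr2 box B: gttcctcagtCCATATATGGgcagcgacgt

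Of 15 genes of the EGR family, Egr2 included, the NAB corepressors that bind EGR proteins, and AP-1, 0 were higher and 10 lower in EGFP+ cells. The shares of all genes were 9.66% and 19.2%, and the list median was -1.59. The 3 other EGR genes were lower with Egr2: Egr3 (-5.02), Egr1 (-3.16) and Egr4, which had 1 read in EGFP+ cells and a ratio of 438 (78.2 to 17352). Egr3 had 10.1 and 22.6 normalized reads in UV EGFP+ and 85.7 and 27.6 in no UV EGFP+ cells, against 443 and 660 in UV tdTomato+ and 1069 and 2277 in no UV tdTomato+ cells. Fosl1 (-5.89), an AP-1 subunit, was lower too. Nab1 (-0.07, adjusted p = 0.763), Nab2 (0.11, adjusted p = 0.83) and Jun (0.07, adjusted p = 0.917) did not pass. Fos, Junb and Fosl2 did not pass in 6, 7 and 6 of 8 leave-one-out fits (highest adjusted p 0.233 and 0.2 without no UV EGFP replicate 1 for Fos and Junb, and 0.067 without no UV tdTomato replicate 1 for Fosl2). Fos (0.066 and 0.0823) and Junb (0.113 and 0.111) did not pass under quantile normalization and rescaling either. Of 25 Schwann lineage regulators and precursor markers 10 were higher and 5 lower, beside 9.66% and 19.2% of all genes, with a median of 0.11; the lower share is near the background. The higher genes included Sox10 (5.81) and Foxd3 (5.59), factors of the neural crest, and Ednrb (5.82), the endothelin receptor, while Tfap2a, another neural crest factor, did not pass (-0.56, adjusted p = 0.146). The lower genes included Pou3f1 (-4.85), the factor Oct6 that precedes Egr2, and Adgrg6 (-5.17), the adhesion receptor that starts myelination in mouse and zebrafish. Nrg1, the axonal growth signal of Schwann cells, had 0 reads in every EGFP+ library and was at least 457-fold lower over all mice. The bound was 376-fold within UV mice (1154 tdTomato+ reads) and 28.3-fold within no UV mice (65 tdTomato+ reads). Erbb3 (1.86), the receptor of Nrg1, was higher and did not pass in 4 of 8 leave-one-out fits (highest adjusted p 0.0734, without no UV EGFP replicate 2).

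**Figure D3:**
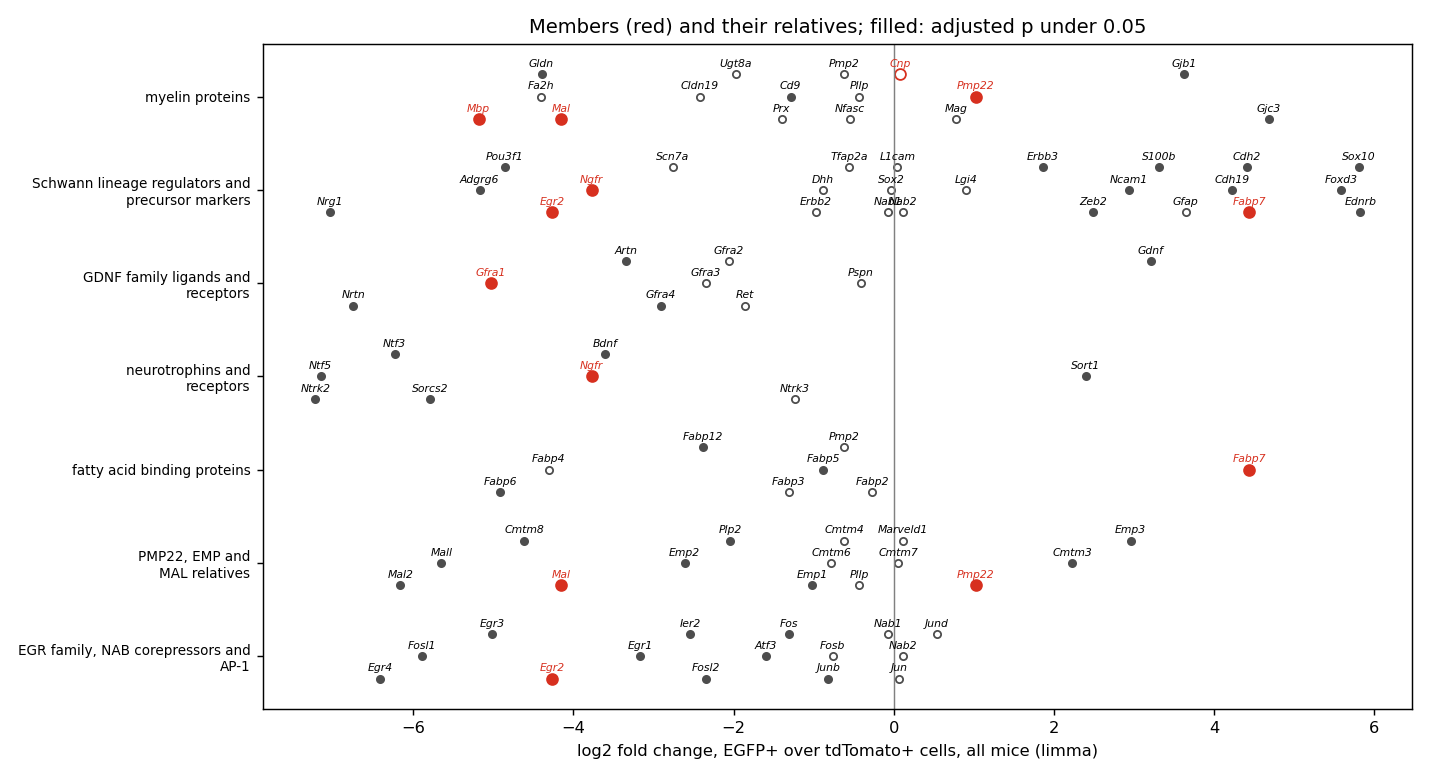
Log2 fold change of EGFP+ over tdTomato+ cells, all mice, for the 8 genes (red) and the relatives shown, by list; filled points have limma adjusted p under 0.05. Fabp7 is the lone filled fatty acid binding protein right of 0, and no EGR or AP-1 gene is filled right of 0.

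The calls over all mice held in each of 8 fits that left out 1 library for Mbp, Pmp22, Ngfr, Fabp7, Gfra1 and Egr2. The call of Mal was lost without no UV EGFP replicate 2 (adjusted p = 0.0979), UV EGFP replicate 2 (0.0524), no UV tdTomato replicate 1 (0.0617), UV tdTomato replicate 1 (0.0972) or UV tdTomato replicate 2 (0.0744). Without mouse 1, an alternative chosen after seeing the data, Pmp22 (0.0811), Ngfr (0.0667) and Egr2 (0.135) lost it.

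Within UV mice the values were -7.46 ± 0.83 for Mbp (adjusted p = 0.000729), 0.94 ± 0.26 for Pmp22 (0.0415), -6.00 ± 1.49 for Mal (0.0264), -0.14 ± 0.42 for Cnp (0.904) and -6.21 ± 1.11 for Ngfr (0.0066). Mbp and Gfra1 kept their calls in UV mice in all 8 fits without 1 library. Pmp22 lost its call in each of the 8 (adjusted p 0.0589 to 0.267), and Ngfr without UV tdTomato replicate 2 (0.0596). Mal lost it without either no UV EGFP library, UV EGFP replicate 2 or either UV tdTomato library (0.0586 to 0.187), and Fabp7 without either no UV EGFP library, no UV tdTomato replicate 1 or either UV tdTomato library (0.0581 to 0.15). Egr2 lost it without any 1 of the 2 no UV EGFP and 4 tdTomato libraries (0.0765 to 0.163).

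Within no UV mice the values were -2.91 ± 0.83 for Mbp (adjusted p = 0.0414), 1.11 ± 0.26 for Pmp22 (0.0199), -2.43 ± 0.68 for Gfra1 (0.0398), -2.31 ± 1.49 for Mal (0.343), 0.29 ± 0.42 for Cnp (0.691) and -1.34 ± 1.11 for Ngfr (0.454). Fabp7 kept its call in all 8 fits without 1 library. Mbp, Pmp22, Gfra1 and Egr2 each lost theirs without any 1 of the 2 no UV EGFP and 4 tdTomato libraries, with adjusted p up to 0.183, 0.154, 0.178 and 0.189 in that order. With mouse as a block, Mbp (0.0697) and Gfra1 (0.0746) lost theirs as well.

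Between UV and no UV EGFP+ cells, 0 of the 8 genes passed with limma, where 0.0166% of all genes did (3 genes, all lower), although 3 of the 8 and 1875 of 18070 genes had an unadjusted p under 0.05. Of the 8, 6 had both UV EGFP+ values below both no UV EGFP+ values, among them Mbp, Gfra1 and Ngfr, and 1 (Cnp) had them above. Among all genes 20.7% were lower and 12.7% higher without overlap. Mbp, Mal and Ngfr had 0 reads in both UV EGFP+ libraries and reads in both no UV EGFP+ libraries, as did 4.32% of genes. Against the no UV EGFP+ reads (123, 14 and 32), these were at least 38.6-fold lower for Mbp, 4.39-fold for Mal and 10.0-fold for Ngfr. The log2 fold change was -5.63 ± 0.83 for Mbp (limma adjusted p = 0.0863), -4.34 ± 0.68 for Gfra1 (0.101), -3.89 ± 1.11 for Ngfr (0.305) and -1.95 ± 0.95 for Egr2 (0.523). On recovered reads, Mbp passed with edgeR (adjusted p = 0.0068) and DESeq2 (7.54e-05), and so did Gfra1 (0.00723 and 2.82e-05), where 0.57% and 1.52% of all genes were called lower. Ngfr passed with DESeq2 (0.0346). Mbp and Gfra1 also passed with limma without UV EGFP replicate 1 (0.00602 and 0.00486), which leaves 1 UV EGFP+ library and assumes that it varies like the other groups.

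The lists of relatives, which include the 8 genes, were read in the same way. Of the 25 Schwann lineage genes 11 were lower without overlap in UV EGFP+ cells and 2 were higher. Of the 18 myelin genes 9 were lower and 1 higher, beside the 20.7% and 12.7% of all genes. Of the 9 GDNF family genes 5 were lower and 0 higher. The 15 PMP22 and MAL family genes had 5 lower and 2 higher, and the 15 EGR and AP-1 genes 5 and 0. Of the 9 tested neurotrophin and receptor genes 3 were lower and 1 higher. Of the 8 tested fatty acid binding proteins 1 was lower and 1 higher. With limma, 0 genes of the 7 lists passed. Examples chosen after their values were seen are Dhh, the hedgehog ligand of Schwann cells, Gfap, a filament of non-myelinating Schwann cells, and Sox2, a factor of immature Schwann cells. Dhh had 6.71 and 0 normalized reads in UV EGFP+ cells, against 92.3 and 50.4 in no UV EGFP+ cells (adjusted p = 0.383). Gfap had 20.1 and 0 in UV EGFP+ cells, against 529 and 87.5 in no UV EGFP+ cells (0.346). Sox2 had 0 and 0 in UV EGFP+ cells, against 39.9 and 14.3 in no UV EGFP+ cells (0.287), at least 19.7-fold lower. With edgeR on recovered reads these did not pass either (0.394, 0.245 and 0.345 in that order). DESeq2 on recovered reads gave 0.119 for Dhh and 0.0606 for Gfap, and no adjusted p for Sox2. Bdnf, a ligand of p75, had 0.839 and 0 in UV EGFP+ cells, against 343 and 86.5 in no UV EGFP+ cells, with a limma adjusted p of 0.073 and, on recovered reads, 0.00426 with edgeR and 1.54e-05 with DESeq2.

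Other values moved along with these. UV EGFP+ libraries had fewer detected genes (14503 and 11186, against 14922 and 15867 in no UV EGFP+). The 5 Langerhans cell and macrophage markers summed to 4.31 to 48.7 normalized reads in UV EGFP+ cells, against 392 to 605 in no UV EGFP+ cells. Nearly all of this sum was Cd74 and H2-Aa. Cd74 had 40.3 and 2.16 in UV EGFP+ cells, against 304 and 91.3 in no UV EGFP+ cells. H2-Aa had 6.71 and 1.08, against 299 and 300. Cd207 had 0 and 1.08 in UV EGFP+ cells, against 0.832 and 0 in no UV EGFP+ cells. Csf1r was at 0 in 3 and Adgre1 in 3 of the 4 EGFP+ libraries. The basal keratinocyte markers summed to 779 to 875 in UV EGFP+ and 668 to 839 in no UV EGFP+ cells. The part of these in the values of Mbp, Ngfr and Gfra1 was not tested.

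Between UV and no UV tdTomato+ cells, 0 of the 8 genes passed with limma either (0.559% of all genes did), while 2 of the 8 and 2429 genes had an unadjusted p under 0.05. edgeR and DESeq2 on recovered reads called 0 of the 8 as well (0.598% and 1.5% of all genes were lower with them). Cnp (1.36 ± 0.42, adjusted p = 0.223), Fabp7 (1.84 ± 0.69, 0.303) and Gfra1 (0.86 ± 0.68, 0.609) had both UV values above both no UV values, and Egr2 (-1.54 ± 0.95, 0.547) and Mbp (-1.08 ± 0.83, 0.598) had both below. Without overlap, 21.6% of all genes were higher and 24.5% lower. Mal, Ngfr and Pmp22 overlapped. Of the 15 EGR and AP-1 genes, 12 had both UV tdTomato+ values below both no UV values, Egr2 among them, and 0 passed. Beside the value of Fabp7, the 7 melanocyte markers summed to 23040 to 44486 in UV tdTomato+ and 2375 to 5439 in no UV tdTomato+ libraries. Among relatives of the 8 genes, 3 were higher after UV in tdTomato+ cells, where 0.349% of all genes were higher and 0.21% lower, among them Ednrb (4.45 ± 0.42, adjusted p = 0.0101) and Fabp5 (1.90 ± 0.29, 0.0382). The call of Ednrb was lost in 6 of 8 leave-one-out fits. It held only without UV EGFP replicate 1 or without no UV tdTomato replicate 1. The call of Fabp5 was lost in each of the 8. It was also lost with replicate number as a block (limma adjusted p = 0.0507), where a number joins different mice.

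The UV responses of the 2 populations were also set against each other. The difference (EGFP+ minus tdTomato+) was -5.20 ± 0.97 for Gfra1 (limma adjusted p = 0.206) and -4.55 ± 1.17 for Mbp (0.297), and 0 of 8 passed, where 0.00553% of all genes did. Among the 8, 4 had an unadjusted p under 0.05, as did 1814 of all genes. On recovered reads Gfra1 passed with edgeR (0.0136) and DESeq2 (4.34e-05), and Mbp with edgeR (0.0478) and DESeq2 (0.00414), where 0.315% and 1.15% of all genes were called lower. Ngfr passed with DESeq2 (0.0495). Without UV EGFP replicate 1, Gfra1 (0.0137) and Mbp (0.0463) passed with limma.

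**Figure D4:**
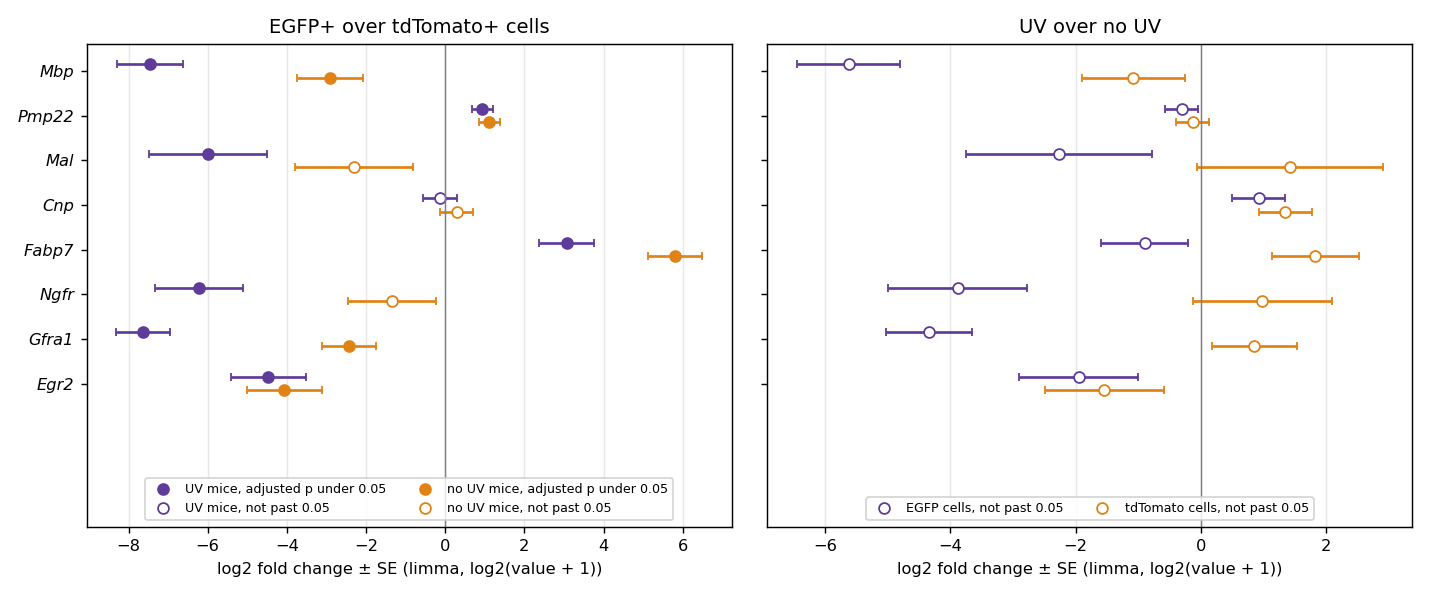
Left, log2 fold change of EGFP+ over tdTomato+ cells within UV and no UV mice; right, UV over no UV within EGFP+ and tdTomato+ cells; bars are the SE of the limma fit, and filled points have adjusted p under 0.05. For each of the 8 genes the UV mice lie further left than the no UV mice, and no point on the right is filled.

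Per kilobase of annotated exon, Pmp22 was the most abundant of the 8 in both populations, at a mean of 1709 normalized reads per kilobase in EGFP+ and 844 in tdTomato+ cells. Fabp7 was next in EGFP+ cells (701, against 35.4 in tdTomato+ cells), and Egr2 was next in tdTomato+ cells (35.6 in EGFP+, 549 in tdTomato+). Cnp had 77.5 in EGFP+ and 77.9 in tdTomato+ cells. Mal (1.06), Ngfr (2.03), Mbp (3.14) and Gfra1 (5.32) were the lowest in EGFP+ cells. Across the 4 groups, Mbp and Egr2 ran from no UV tdTomato+ down through UV tdTomato+ and no UV EGFP+ to UV EGFP+, and no neighbouring groups overlapped. Gfra1 had UV tdTomato+ on top and the rest in the same order, again without overlap.

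The genes with the most similar pattern to each of the 8 were sought among 13259 genes, by the root mean square difference of centred log2 values over the 8 libraries, as a description. For Mbp these were Cdkn2b (0.45) and Col6a2 (0.52), and for Gfra1 Pcsk6 (0.49) and Prdm1 (0.49). Ngfr was closest to Itga2 (0.45) and Krt18 (0.46), and Mal to Stmn2 (0.56) and Pcdh20 (0.67). Fabp7 was closest to Sdpr (0.33) and Plat (0.43), and Pmp22 to Heatr5b (0.16) and Mthfd1 (0.17). Cnp was closest to Dusp19 (0.27) and Haus4 (0.29), and Egr2 to Prss23 (0.63) and Itpkc (0.68).

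In the authors' deposited table of EGFP+ against tdTomato+ cells, computed with DESeq2 over all 8 libraries, the log2 fold change of Mbp was -2.90 with an adjusted p of 0.1. The authors' deposited table gave -2.91 for Ngfr (adjusted p 0.0246), 4.21 for Fabp7, -3.66 for Gfra1, -3.83 for Egr2, -3.82 for Mal, 1.01 for Pmp22 and -0.01 for Cnp (0.994). For Mbp the deposited adjusted p is on the other side of 0.05 from the one computed here over all mice.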

How the data were processed

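RNA of EGFP+ and tdTomato+ cells sorted from the skin of 4 mice was made into 8 poly(A)-selected, unstranded libraries, per the labels' protocols. Per the submitters' processing notes, the tools were DESeq2 1.14.1, TopHat2 2.0.12, Cufflinks 2.2.1 and FastQC, with mm10; what counted the reads, and on which annotation, is not given in the sources used here. Signal values are normalized reads, deposited by the authors as reads over a size factor per library. Whole reads were recovered from them: all 195368 values (100%) came within 0.01 of whole. The log2 fold changes, the score and the p-value columns were computed by the authors for EGFP+ against tdTomato+ cells over 8 libraries, per the file headers, and serve only as a comparison.

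Here limma 3.58.1 (R 4.3.3) was run on log2(value + 1) of the 8 libraries together, with a coefficient for each group, a trended prior and 4 residual degrees of freedom (median 8.4 after moderation). The 18070 genes whose mean reached 1 in some group were tested, with Benjamini-Hochberg adjustment over all of them and a threshold of 0.05. Fold changes are on that log2 scale and understate those of low genes. p-values rest on 2 mice per group, and an exact permutation test of 2 against 2 libraries cannot reach the threshold. edgeR 4.0.16 and DESeq2 1.42.0 on the recovered reads are alternatives; quantile normalization, rescaling, another pseudocount, other filters, only the libraries compared, a block and leaving out libraries are the others. Counting intervals (95%, exact) and bounds from 3 reads cover counting error only.

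The labels give each mouse a number, so EGFP+ and tdTomato+ cells of 1 mouse are a pair; across genes, deviations of a pair correlated at 0.0873 (mice 1 and 2) and 0.0562 (mice 3 and 4). UV and no UV replicate numbers belong to different mice (0.0549 in EGFP+ and 0.0759 in tdTomato+ cells). Coordinates and exon lengths are from GENCODE M21 (mm10), promoter sequences from RefSeq GRCm38.p6. The 8 genes and the 7 lists of relatives (94 genes in all) were chosen with earlier results of these data known; some listed genes are counted but not reported here by name. All 8 genes are given, with up to 4 called members of a list and up to 4 relatives or partners, and the 2 genes nearest in pattern (mean of at least 10 in a group).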

Additional observations from a re-analysis of the deposited data

Results flagged for a closer look

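In the 4 EGFP+ libraries, which span both UV arms, 3 of the 8 genes had a library far from the rest, with a gap to its nearest neighbour, as a share of the range, above Dixon's 95% critical value for 4 samples. For Pmp22 the lowest, UV EGFP+ replicate 2 (3009 normalized reads), had a gap of 0.86 of the range. For Mal the highest, no UV EGFP+ replicate 1 (10.8), had a gap of 0.912. For Egr2 the lowest, UV EGFP+ replicate 1 (10.9), had a gap of 0.864. Chance alone puts about 1 in 20 groups of 4 past this value.

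The UV responses of Gfra1 had opposite signs, though neither passed with limma: both UV EGFP+ values lay below both no UV EGFP+ values, and both UV tdTomato+ values lay above both no UV tdTomato+ values. The difference of the responses, EGFP+ minus tdTomato+, was -5.20 log2 units. Its limma adjusted p was 0.206, that of edgeR 0.0136 and that of DESeq2 4.34e-05 on recovered reads.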

How the results depend on the processing

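Precision is limited by 2 mice per group and, for Mal, Ngfr and Mbp, by low read counts (0 in both UV EGFP+ libraries). Over all mice the number of called genes stayed within 1.5 times 5217 under every alternative but the leave-one-out fits (3463 to 6594), but the share of higher calls among them was 51.7% (2857 higher, 2672 lower) under quantile normalization and 47.8% (2655 and 2895) when rescaled without the 20 most abundant genes, in place of 33.5% (1746 and 3471). These moved the median over genes by 0.45 and 0.21 log2 units. The directions of the 7 genes called over all mice held under both.

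Of the 8 genes, 4 were called over all mice without mouse 1. Within UV mice the number was 1 with only the libraries compared (1074 genes in all) and 3 without mouse 1 (1119 in all). Within no UV mice it was 3 with a pseudocount of 0.1, quantile normalization, rescaling or mouse as a block, 2 with only the libraries compared and 0 without mouse 1. The block changed no other call of the 8 genes, and the cause of these losses was not tested. In the UV response of EGFP+ cells edgeR called 2 of the 8 and DESeq2 3, and in the difference of responses also 2 and 3.

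Genes called in the UV response of EGFP+ cells numbered 1 (pseudocount 0.1), 16 (quantile), 0 (only the libraries compared), 120 (edgeR), 361 (DESeq2) and 818 (without mouse 1), in place of 3. In tdTomato+ cells they numbered 29, 218, 0, 240, 629 and 2006 under the same alternatives, in place of 101. For the difference of responses they numbered 0 (pseudocount 0.1 or no filter), 14 (quantile), 2 (rescaled), 75 (edgeR), 291 (DESeq2) and 2064 (without mouse 1), in place of 1.

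Leaving out 1 library gave 993 to 4952 called genes within UV mice, 1398 to 4494 within no UV mice, 0 to 1604 for UV in EGFP+ cells, 0 to 1772 in tdTomato+ cells and 0 to 1297 for the difference. The highest counts came without UV EGFP+ replicate 1 (4952, 4494 and 1604) and without no UV tdTomato+ replicate 1 (1772 and 1297), and 1398 came without no UV EGFP+ replicate 2. Of the 8 genes it left 6 to 7 called over all mice, 2 to 6 within UV mice, 1 to 5 within no UV mice, 0 to 2 for UV in EGFP+ cells and 0 to 2 for the difference. Directions that turned belonged to values that had not passed. Cnp ran from -0.095 to 0.25 over all mice, -0.42 to 0.15 within UV mice (0.080 when rescaled) and -0.052 to 0.63 within no UV mice. In the UV response of tdTomato+ cells Pmp22 ran from -0.39 to 0.14 (0.14 without mouse 1) and Mal from -0.40 to 3.25. In the difference of responses Pmp22 ran from -0.44 to 0.086 and Egr2 from -2.23 to 1.42 (0.50 with edgeR, 0.54 with DESeq2).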
